A study of Mus musculus with 17 samples.

Results

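The 10 genes described here, Vim, Nes, Cd44, Pax6, Hopx, Msi1, Fabp7, Slc1a3, Ptprz1 and Prom1, are markers in common use for radial glia and neural stem cells. They were chosen by symbol from 52850 gene symbols counted in 12 mouse RNA-seq libraries. All 10 were among the 18329 genes expressed highly enough to be tested, and each was compared over 4 groups of libraries. Radial glia are the stem cells of the embryonic brain. They line the ventricles, send a long fibre to the brain surface, divide to give neurons and later astrocytes, oligodendrocytes and ependymal cells, and leave behind the neural stem cells of the adult ventricular wall. Ependymoma is a brain tumour whose cells resemble radial glia and ependymal cells, and a class of supratentorial ependymoma carries fusions of the transcriptional co-activator YAP, which acts through TEAD factors on DNA.

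The group YAP-M held 4 libraries of mouse brain tumour made by in utero electroporation, in which a plasmid is pulsed into progenitors at the ventricle of the embryo, here with the YAP fusion YAP-M. YMdIDR held 3 libraries of YAP-M without its IDR, the usual abbreviation for an intrinsically disordered region. Its labels conflict, giving brain tumour tissue as the source but progenitor cells derived from ES cells as the tissue. SVZ held 3 libraries with wild-type as their treatment. Their source and tissue entries nevertheless say brain tumour, and the extraction protocol speaks of normal brain. NSC-YAP held 2 libraries of cultured ES-derived neural progenitors overexpressing YAP, grown with EGF and basic FGF. Age, strain, promoter and the number of lines, animals or electroporated litters were not given in the sources used here. Nothing in the labels says that libraries of a group came from separate animals or cultures, so the p-values measure the spread between these libraries, which may be technical. The series title names phase separation of YAP fusion proteins, and the question behind YAP-M against YMdIDR is the part played by the disordered region.

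Counts per library summed to 20784130 to 25463303 reads in genes, so 3 counts corresponded to 0.11 to 0.147 CPM (counts scaled to library size). Yap1, the gene behind the constructs of 3 of the 4 groups, stood at 92.7 to 105 CPM in YAP-M, 184, 838 and 1274 CPM in YMdIDR, 241 and 238 CPM in NSC-YAP and 21.5 to 27.9 CPM in SVZ. Counts per gene do not separate reads of a construct from reads of the cells' own Yap1, so these are not construct levels. Mitochondrial genes took 12.7% to 17.0% of counts in SVZ, 4.91% to 6.50% in YAP-M, 5.55% to 6.03% in YMdIDR and 6.97% to 7.05% in NSC-YAP. In SVZ, 6 oligodendrocyte markers summed to 28310 to 34062 CPM and 9 neuron markers to 4623 to 4895 CPM, above the other 3 groups, where the sums reached at most 3304 and 876 CPM. Macrophage markers were present in YMdIDR at 2044 to 2335 CPM summed over 9 genes, within the 1726 to 2633 CPM of the YAP-M tumours, and at 41.4 to 43.8 CPM in the NSC-YAP cultures. This list holds markers of microglia as well as of macrophages. Pluripotency markers, 5 genes, summed to 1.83 to 2.93 CPM in NSC-YAP. In bulk RNA, fewer cells of a type and less RNA per cell cannot be told apart, and this holds for every level given here.

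The promoters of 4 members are shown because these genes had the largest rises over SVZ in YMdIDR (Vim, Nes, Cd44) or the largest difference between the fusion constructs (Prom1). RefSeq promoters on GRCm38.p6 matched 9 of the 10 members with 12 start sites between them, each from 250 bases before to 50 bases after the start. The 250 bases before the start are printed in the direction of transcription. Capitals mark an AP-1 motif.

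Vim, chr2:13574061-13574310, plus strand: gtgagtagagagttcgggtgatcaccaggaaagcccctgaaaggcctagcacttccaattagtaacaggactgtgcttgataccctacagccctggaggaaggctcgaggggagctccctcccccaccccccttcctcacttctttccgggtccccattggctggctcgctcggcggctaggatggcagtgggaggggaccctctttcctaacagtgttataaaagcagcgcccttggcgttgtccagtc
Nes, chr3:87970843-87971092, plus strand: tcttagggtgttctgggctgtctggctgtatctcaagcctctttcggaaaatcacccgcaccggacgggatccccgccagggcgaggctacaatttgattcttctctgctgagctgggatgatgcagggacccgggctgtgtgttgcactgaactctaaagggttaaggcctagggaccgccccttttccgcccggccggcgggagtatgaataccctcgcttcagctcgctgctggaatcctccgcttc
Cd44, chr2:102901666-102901915, minus strand: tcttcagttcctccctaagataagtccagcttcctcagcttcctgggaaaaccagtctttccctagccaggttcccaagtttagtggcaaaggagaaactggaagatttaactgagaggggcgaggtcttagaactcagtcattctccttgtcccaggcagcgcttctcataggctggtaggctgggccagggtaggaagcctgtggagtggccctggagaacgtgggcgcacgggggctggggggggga
Prom1, chr5:44101737-44101986, minus strand: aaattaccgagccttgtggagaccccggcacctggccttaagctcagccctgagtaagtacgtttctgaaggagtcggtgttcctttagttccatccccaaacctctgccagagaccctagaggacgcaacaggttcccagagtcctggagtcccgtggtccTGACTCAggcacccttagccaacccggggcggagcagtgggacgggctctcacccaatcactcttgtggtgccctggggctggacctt

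Short motifs were searched on both strands of the 300 bases, GGAATG of TEAD factors, TGANTCA of AP-1 and GTGGGAA of RBPJ, the DNA-binding partner of Notch. AP-1 and TEAD sites are often found together in DNA bound by YAP. AP-1 letters were found in 1 of the 9 members, Prom1, at both of its start sites, as TGACTCA from 88 to 82 bases before the start printed above and as TGAATCA from 189 to 183 bases before the other. None of the 9 held the TEAD letters, which 14.7% of all 32851 RefSeq promoters of this length hold, or the RBPJ letters, held by 6.38%. AP-1 letters are in 7.81% of all. These shares are per promoter, and the 9 members have 12 promoters between them, too few to tell from such shares. The median GC content of the members' promoters was 57.5%, against 52.7% for all. No binding data were used here, and the absence of letters in this window says nothing of binding elsewhere.

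The members did not move as a block against SVZ. In the YAP-M tumours, 4 of the 10 rose (Vim, Cd44, Pax6 and Nes) and 5 fell (Ptprz1, Prom1, Hopx, Slc1a3 and Msi1). Fabp7 was not called, by the size of its difference rather than its adjusted p. A call required an adjusted p below 0.05 in edgeR's quasi-likelihood test (Benjamini-Hochberg, over all 18329 genes) together with a log2 difference no smaller than 1 either way. The members' 9 calls stand beside a background of 25.8% of all genes higher, 28.9% lower and 54.7% either way. Their median log2 fold change was -1.04, beside -0.04 over all genes. In YMdIDR against SVZ the same 4 genes rose and 4 fell (Prom1, Slc1a3, Ptprz1 and Hopx), beside 26.9% of all genes called higher, 29.6% lower and 56.5% either way. The members' median there was -0.46 and that of all genes -0.01. In NSC-YAP against SVZ, 8 rose, 1 fell (Hopx) and Prom1 was not called, beside 17.5% of all genes called higher, 27.6% lower and 45.1% either way. There the members' median was 2.29 and that of all genes -0.10. These 3 comparisons share the SVZ libraries.

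**Figure D1:**
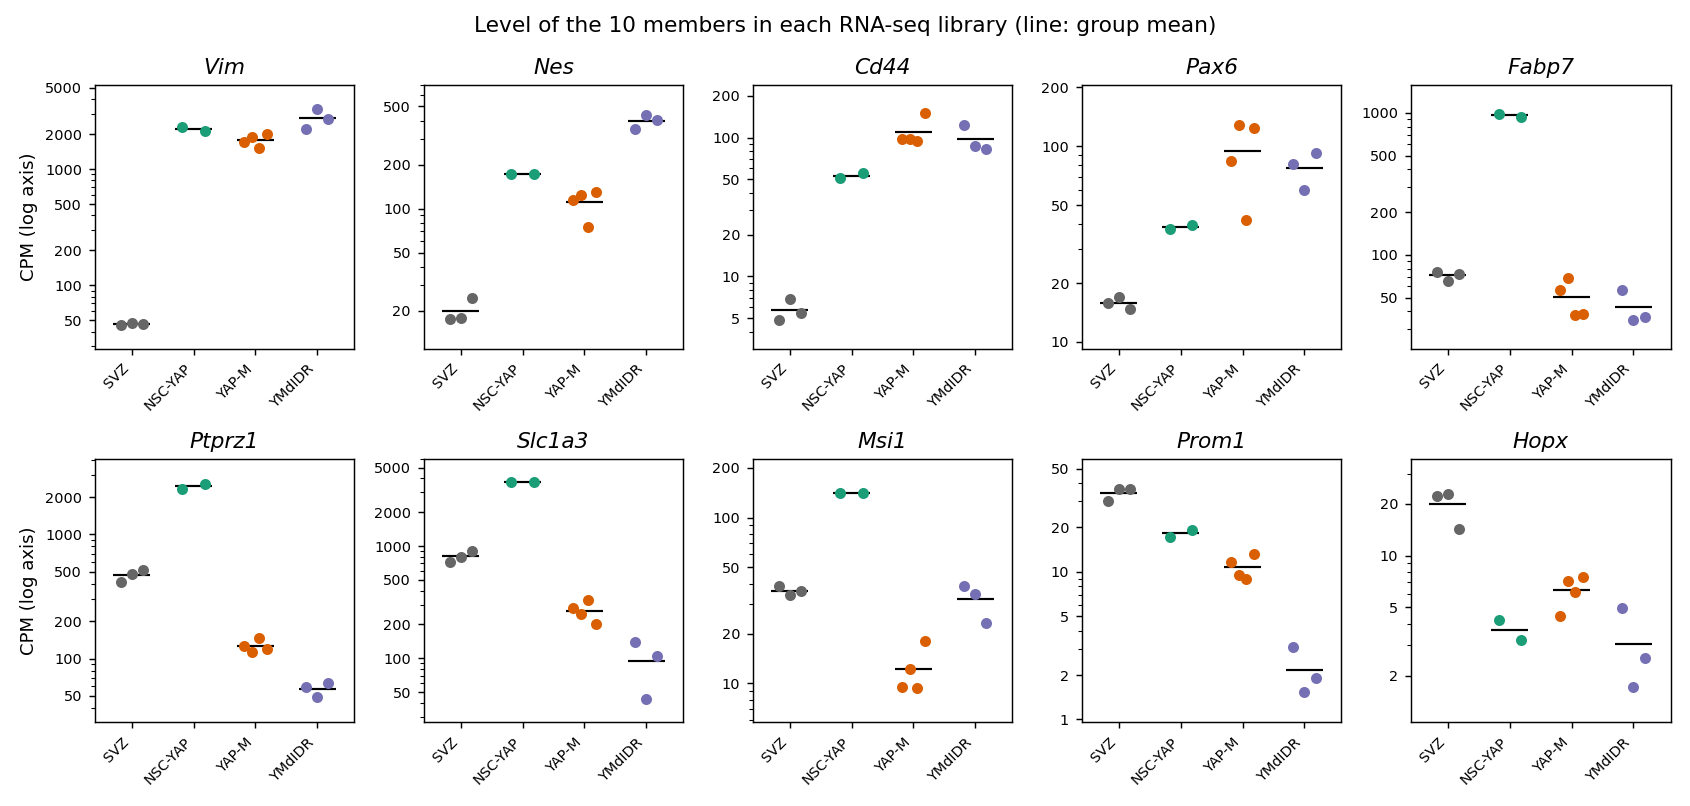
Level of each member in CPM (log axis, a different range in each panel) in every library of SVZ, NSC-YAP, YAP-M and YMdIDR; points are libraries and lines are group means. Vim sits at 45.7 to 47.2 CPM in SVZ and at 1520 to 3305 CPM in the other 9 libraries, while Fabp7, Ptprz1, Slc1a3 and Msi1 are highest in both NSC-YAP libraries.

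Between the 2 fusion constructs, 6 members were called. Prom1, Slc1a3, Ptprz1 and Hopx were higher in YAP-M than in YMdIDR, and Nes and Msi1 were lower. The background was 9.61% of all genes called higher and 6.78% lower, 16.4% in either direction. The members' median log2 fold change was 0.25 and that of all genes 0.01. Vim, Cd44, Pax6 and Fabp7 were not called, with 95% intervals of the log2 difference of -0.92 to -0.32, -0.26 to 0.60, -0.40 to 0.96 and -0.27 to 0.72. The interval of Vim excludes 0, and its adjusted p by edgeR was 0.00397, but its size was under the minimum. The intervals of the other 3 leave room for a change of either sign. The 2 groups also differed in Yap1, at 92.7 to 105 CPM in YAP-M and 184, 838 and 1274 CPM in YMdIDR. Cell type markers differed too. Higher in YAP-M were 5 of 5 blood, 4 of 7 astrocyte, 3 of 6 endothelial and 1 of 6 oligodendrocyte precursor markers, with 0 lower in each list. Of 9 neuron markers, 3 were higher and 2 lower. None of the 6 oligodendrocyte, 6 ependymal, 9 macrophage or 7 pericyte and fibroblast markers was called. The part of the Yap1 level or of cell makeup in the differences of the members was not tested.

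Against the NSC-YAP cultures, the YAP-M tumours were lower for Ptprz1, Fabp7, Slc1a3 and Msi1 and higher for Pax6 and Cd44. The background there was 28.9% of all genes higher, 21.6% lower and 50.4% either way. YMdIDR was lower than NSC-YAP for those 4 and also for Prom1, and higher for Nes and Pax6, beside 27.4% of all genes higher, 20.4% lower and 47.8% either way. The members' medians were -0.70 and -1.21, and those of all genes 0.10 and 0.13. The NSC-YAP backgrounds turn with the scaling. Quantile normalization gave 3846 genes above and 5045 below NSC-YAP in YAP-M, where edgeR's TMM scaling gave 5293 and 3951. For YMdIDR against NSC-YAP the counts were 3700 and 4656 instead of 5026 and 3744, and for NSC-YAP against SVZ 4591 and 3643 instead of 3199 and 5061.

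**Figure D2:**
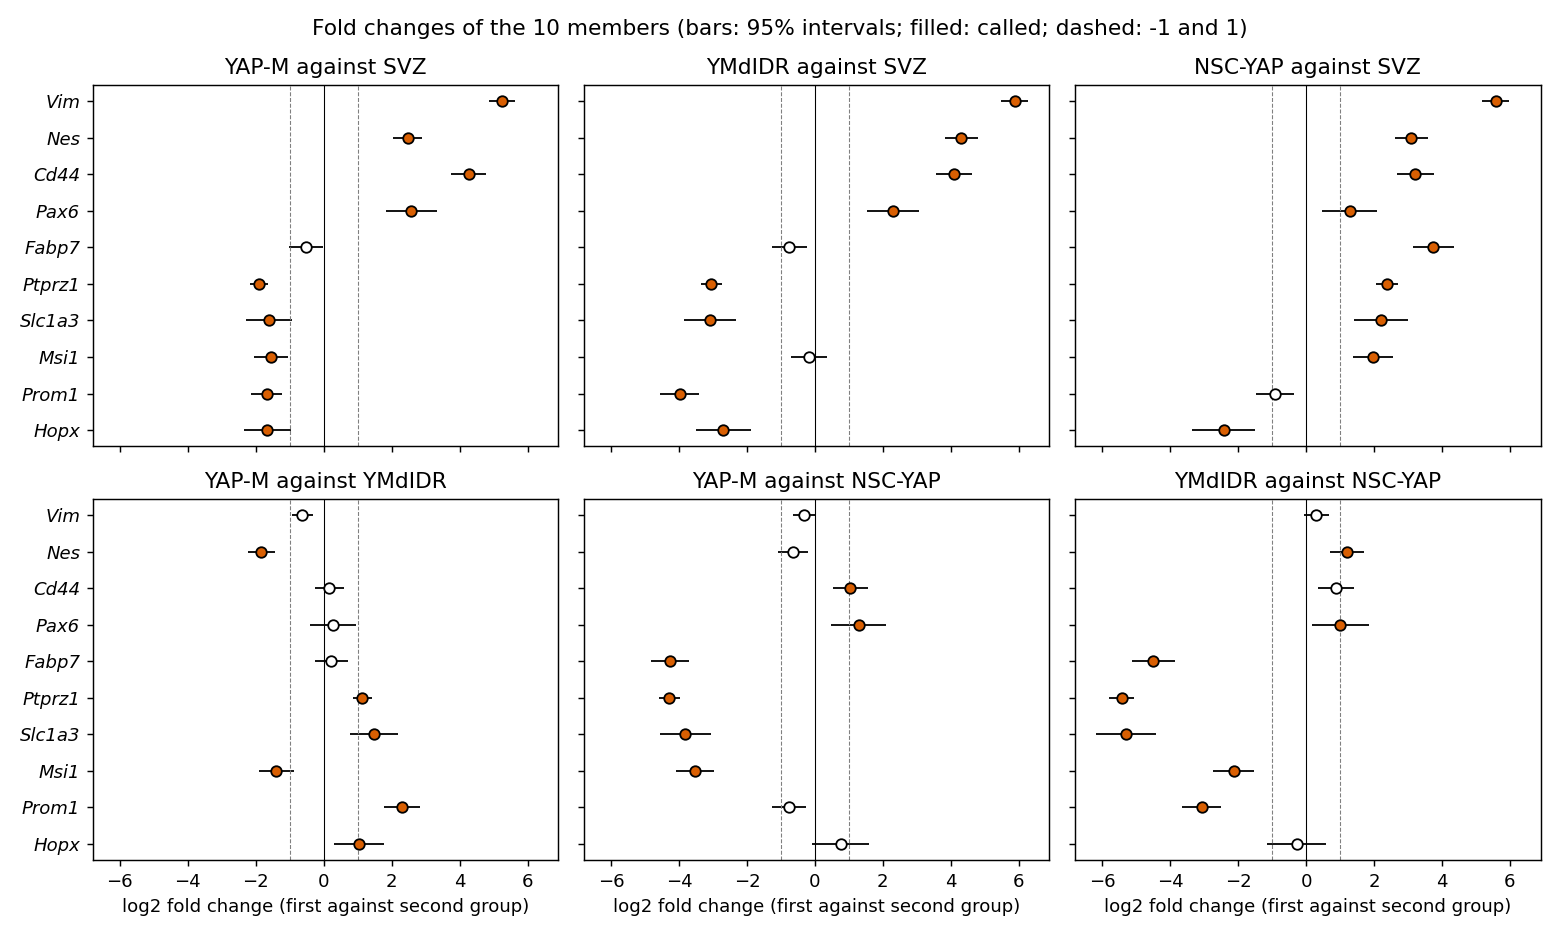
Log2 fold changes of the 10 members in 6 comparisons from edgeR, with bars for the 95% interval of each; filled points were called, open points were not, and dashed lines mark -1 and 1. In all 3 comparisons against SVZ, Vim, Nes, Cd44 and Pax6 lie to the right of 1, and in both comparisons of a fusion with NSC-YAP, Fabp7, Ptprz1, Slc1a3 and Msi1 lie to the left of -1.

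Vim and Nes encode vimentin and nestin, intermediate filament proteins of the radial glial fibre. Vim (ENSMUSG00000026728, mm10 chr2:13573927-13582826, plus strand) was counted at 1698, 1881, 1520 and 2005 CPM in YAP-M replicates 1 to 4. It stood at 2208, 3305 and 2692 CPM in YMdIDR, 2304 and 2126 CPM in NSC-YAP and 45.7, 47.2 and 46.3 CPM in SVZ. Every library of the other 3 groups lay far above SVZ, YMdIDR and NSC-YAP overlapped, and YAP-M lay just below both. The log2 fold change over SVZ was 5.26 ± 0.17 in YAP-M (SE; edgeR adjusted p = 2.67e-09), a 38.3-fold rise, 5.88 ± 0.18 in YMdIDR (edgeR adjusted p = 1.54e-09) and 5.58 ± 0.18 in NSC-YAP (edgeR adjusted p = 6.21e-09). Per kilobase of exon, Vim ranked 91 of 18329 genes by mean level in YAP-M, 84 in YMdIDR and 100 in NSC-YAP, and 5082 in SVZ. The difference between YAP-M and NSC-YAP was -0.32 ± 0.15 with edgeR adjusted p = 0.0803, and its sign turned, to 0.19, after quantile normalization.

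Nestin is the classic marker of dividing neural progenitors. Nes (ENSMUSG00000004891, mm10 chr3:87971078-87980451, plus strand) stood at 115, 123, 75.3 and 130 CPM in YAP-M replicates 1 to 4. In YMdIDR it stood at 350, 438 and 406 CPM, in NSC-YAP at 173 and 172 CPM and in SVZ at 17.7, 17.98 and 24.5 CPM. The 4 groups did not overlap, and the order was YMdIDR, NSC-YAP, YAP-M and SVZ, with YAP-M replicate 3 the lowest outside SVZ. Nes rose by 2.47 ± 0.20 on the log2 scale in YAP-M over SVZ (edgeR adjusted p = 8.16e-07) and by 4.31 ± 0.22 in YMdIDR (edgeR adjusted p = 3.14e-08). Between the constructs, Nes was 3.58-fold higher in YMdIDR, a log2 difference of -1.84 ± 0.18 for YAP-M against YMdIDR (edgeR adjusted p = 5.51e-05). It was also higher in YMdIDR than in NSC-YAP, by 1.21 ± 0.22 (edgeR adjusted p = 0.000595). YAP-M against NSC-YAP was not called, at -0.63 ± 0.20 (edgeR adjusted p = 0.0141). Vim and Nes had the same group order but different spacing, since Vim in YAP-M lay within 1.54-fold of YMdIDR. Against SVZ, 4 of 7 pericyte and fibroblast markers rose in YAP-M and 1 fell, and 3 of 6 endothelial markers rose and 0 fell. Of all genes, 25.8% were called higher there. The part of such cells in the levels of Vim and Nes was not tested.

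Of 10 other intermediate filament genes, 5 rose in YAP-M against SVZ (Gfap, Des, Krt8, Krt18, Lmna) and 5 fell (Synm, Ina, Nefl, Nefm, Nefh). The neurofilament genes Nefl, Nefm and Nefh and Ina mark neurons. Of 9 neuron markers, 9 fell in the same comparison, beside 28.9% of all genes called lower. The part of neurons in the levels of these filament genes was not tested. Krt8 and Krt18 encode the keratin pair of simple epithelia. Krt18 was 423 ± 308 CPM (SD, n = 4) in YAP-M and 3.69 ± 1.95 CPM (SD, n = 3) in SVZ, a log2 difference of 6.84 ± 0.67 (edgeR adjusted p = 3.46e-06). Krt8 differed by 6.82 ± 0.82 (edgeR adjusted p = 1.59e-05), and Lmna, of the nuclear lamina, by 2.82 ± 0.08 (edgeR adjusted p = 2.26e-09). Against YMdIDR, 3 of the 10 were higher in YAP-M, Synm (1.80 ± 0.23, edgeR adjusted p = 0.000222), Krt8 (4.75 ± 0.72, edgeR adjusted p = 0.000509) and Krt18, and 5 without YAP-M replicate 2 or without YMdIDR replicate 1. Lmna was not called there, at -0.52 ± 0.07 (edgeR adjusted p = 0.000332).

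Cd44 encodes a cell surface receptor for hyaluronan and osteopontin that is also abundant on leukocytes and astrocyte precursors. Cd44 (ENSMUSG00000005087, mm10 chr2:102811141-102901665, minus strand) stood at 97.0, 97.1, 95.1 and 150 CPM in YAP-M replicates 1 to 4 and 123, 86.3 and 82.7 CPM in YMdIDR. It stood at 50.9 and 55.4 CPM in NSC-YAP and 4.84, 6.83 and 5.42 CPM in SVZ. The fusion groups overlapped each other and lay above NSC-YAP, which lay above SVZ. Within YAP-M, 3 libraries lay within about 2 CPM and replicate 4 stood above them. The rise over SVZ was 4.27 ± 0.24 in YAP-M (edgeR adjusted p = 6.92e-08), 4.09 ± 0.24 in YMdIDR (edgeR adjusted p = 7.98e-08) and 3.22 ± 0.25 in NSC-YAP (edgeR adjusted p = 8.78e-07), all log2. Cd44 was called higher in YAP-M than in NSC-YAP at 1.05 ± 0.23 (edgeR adjusted p = 0.00177), a call lost without YAP-M replicate 4, at 0.86, and with the replicate number as a block, at 0.91. The difference between the fusions was 0.17 ± 0.20 (edgeR adjusted p = 0.501) and 0.00 without YAP-M replicate 4.

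Most markers of microglia and macrophages moved with Cd44 in tissue. Against SVZ, 8 of 9 such markers rose in both YAP-M and YMdIDR, from a sum of 296 to 396 CPM in SVZ. The other, P2ry12, averaged 90.0 CPM in SVZ, 51.5 CPM in YAP-M and 26.3 CPM in YMdIDR. It was not called in YAP-M against SVZ and was called lower in YMdIDR against SVZ. In NSC-YAP, Cd44 was 53.1 ± 3.14 CPM (SD, n = 2). Aif1 (0.041 CPM) and Ptprc (0.020 CPM) averaged under 3 counts there, which correspond to 0.122 CPM. Csf1r (0.22 CPM) and C1qa (0.24 CPM) averaged above that but under 1 CPM. Cd68 made up 39.5 CPM of the macrophage sum there. The part of macrophages in the tumour level of Cd44 was not tested.

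Of 8 genes for the ligands of CD44, their synthesis and the linkers of CD44 to actin, 4 rose in YAP-M against SVZ (Spp1, Msn, Ezr and Has2) and 2 fell (Has1 and Has3, both under 4 CPM on average in SVZ), or 1 without SVZ replicate 1 or 2. Spp1, which encodes osteopontin, averaged 806 ± 283 CPM (SD, n = 4) in YAP-M and 7.47 ± 1.29 CPM (SD, n = 3) in SVZ, a log2 difference of 6.75 ± 0.43 (edgeR adjusted p = 1.59e-07). Msn, for moesin, was higher by 3.99 ± 0.13 (edgeR adjusted p = 2.47e-09) and Ezr, for ezrin, by 3.08 ± 0.18 (edgeR adjusted p = 8.28e-08). None of the 8 was called between YAP-M and YMdIDR by edgeR. At an unadjusted p under 0.05, 2 were higher and 1 was lower in YAP-M, since Ezr (0.96 ± 0.16), Msn (-0.47 ± 0.11) and Rdx (0.38 ± 0.11) had edgeR adjusted p of 0.00098, 0.0051 and 0.0162. Ezr, close to the minimum size, was called by DESeq2 and with median-ratio scaling (both 1.01), with no filter on low counts (1.02), with the replicate block (1.08), after quantile normalization (1.2) and without YAP-M replicate 2 or 4 (1.02 and 1.09).

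Pax6 encodes the paired box factor that marks radial glia of the dorsal forebrain. Pax6 (ENSMUSG00000027168, mm10 chr2:105668900-105697364, plus strand) stood at 84.1, 129, 41.8 and 123 CPM in YAP-M replicates 1 to 4. It stood at 81.2, 59.8 and 92.9 CPM in YMdIDR, 38.0 and 39.5 CPM in NSC-YAP and 15.8, 17.0 and 14.8 CPM in SVZ. The YAP-M libraries spread 3.08-fold and spanned the whole YMdIDR range, and replicate 3 lay only just above NSC-YAP. Pax6 rose over SVZ by 2.57 ± 0.34 in YAP-M (edgeR adjusted p = 3.33e-05), 2.30 ± 0.35 in YMdIDR (edgeR adjusted p = 9.45e-05) and 1.29 ± 0.37 in NSC-YAP (edgeR adjusted p = 0.00935). It was higher than in NSC-YAP by 1.29 ± 0.37 in YAP-M (edgeR adjusted p = 0.00853) and 1.01 ± 0.38 in YMdIDR (edgeR adjusted p = 0.0339). Without NSC-YAP replicate 1 or 2, the edgeR adjusted p of the YAP-M difference was 0.0544 or 0.052, and the YMdIDR call was lost without either of them and without YMdIDR replicate 1 or 3, where the difference was 0.87 to 1.02.

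Of 7 genes tied to PAX6 in cortical progenitors, 5 were expressed highly enough to be tested, and the proneural genes Neurog1 and Neurog2 were not. Emx2, a dorsal forebrain homeobox gene, rose in YAP-M against SVZ by 1.33 ± 0.21 (edgeR adjusted p = 0.000133). Emx1 and Eomes, the latter a gene of neuron-producing intermediate progenitors, fell by 3.71 and 1.97 (SE 0.65 and 0.54; edgeR adjusted p = 0.000273 and 0.00549). Both were scarce everywhere, at 3.52 ± 1.04 and 2.88 ± 0.495 CPM in SVZ (SD, n = 3). Between the constructs none of the 5 was called by edgeR or DESeq2, and 1 had an unadjusted p under 0.05. The differences were Emx2 (-0.41 ± 0.20), Meis2 (0.75 ± 0.37) and, with the smallest p, Tle4 (0.92 ± 0.20, edgeR adjusted p = 0.0036). Without YMdIDR replicate 3, 2 of the 5 were called, Tle4 at 1.14 and Meis2 at 1.33.

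Hopx encodes a small homeodomain protein that marks outer radial glia in primates and quiescent stem cells in the adult mouse hippocampus. Hopx (ENSMUSG00000059325, mm10 chr5:77086988-77115121, minus strand) was the only member highest in SVZ with no call between NSC-YAP and either fusion. It stood at 22.3, 22.9 and 14.3 CPM in SVZ, 4.45, 7.08, 6.14 and 7.49 CPM in YAP-M, 4.19 and 3.22 CPM in NSC-YAP and 4.92, 1.71 and 2.52 CPM in YMdIDR. Every SVZ library lay above all 9 others, while YMdIDR overlapped both YAP-M and NSC-YAP. Hopx fell against SVZ by 1.66 in YAP-M (SE 0.32, edgeR adjusted p = 0.000543), 2.70 in YMdIDR (SE 0.37, edgeR adjusted p = 4.01e-05) and 2.42 in NSC-YAP (SE 0.42, edgeR adjusted p = 0.000387). The call of YAP-M over YMdIDR, 1.04 ± 0.34 (edgeR adjusted p = 0.0282), was lost without YAP-M replicate 2 or 4 and without YMdIDR replicate 2 or 3, where it was 0.79 to 1.01. It was also lost in a fit of these groups alone (edgeR adjusted p = 0.064) with the replicate block (edgeR adjusted p = 0.0598) and after quantile normalization, at 0.99. Reads of the overlapping antisense gene Hopxos came to at most 7.89% of those of Hopx in a library.

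A further 9 genes known from outer radial glia were read beside Hopx. Against SVZ, 4 rose in YAP-M (Stat3, Il6st, Tnc and Itgb5) and 2 fell (Ptn and Fam107a). The Tnc ranges overlapped, at 26.2 to 104 CPM in YAP-M and 16.0 to 27.3 CPM in SVZ. Some genes stand on several lists, so counts from different lists are not separate. Tnc and Ptn recur below among the partners of PTPRZ1, and Tnc again among the neural stem cell genes. Il6st encodes the gp130 receptor subunit that LIFR joins, and Stat3 the factor downstream of it. Stat3 differed by 2.17 ± 0.09 (edgeR adjusted p = 7.61e-09) and Il6st by 1.99 ± 0.19 (edgeR adjusted p = 2.75e-06). Between the constructs 3 were higher in YAP-M (Ptn, Fam107a and Moxd1), or 1 without YMdIDR replicate 2 or 3. Lifr and Stat3 were not called there, at 0.67 ± 0.10 and 0.78 ± 0.08 (edgeR adjusted p = 0.000474 and 7.37e-05).

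Msi1 encodes Musashi, an RNA-binding protein that represses translation of the Notch inhibitor Numb and keeps progenitors dividing. Msi1 (ENSMUSG00000054256, mm10 chr5:115429599-115455698, plus strand) stood at 9.49, 12.2, 9.34 and 18.1 CPM in YAP-M replicates 1 to 4 and 38.8, 34.6 and 23.2 CPM in YMdIDR. It stood at 38.5, 34.1 and 36.0 CPM in SVZ and 141 CPM in both NSC-YAP libraries. YAP-M was below every other library, YMdIDR overlapped SVZ, and NSC-YAP was above all. Msi1 fell in YAP-M against SVZ by 1.56 (SE 0.23, edgeR adjusted p = 7.71e-05), while YMdIDR against SVZ was not called at -0.17 ± 0.24 (95% interval -0.71 to 0.37), or 0.02 without YMdIDR replicate 3. YAP-M against YMdIDR was -1.39 ± 0.23, a 2.62-fold lower level (edgeR adjusted p = 0.000864). YAP-M lay 11.5-fold below NSC-YAP, a log2 difference of -3.52 ± 0.25 (edgeR adjusted p = 3.71e-07). Msi1 and Nes were the members lower in YAP-M than in YMdIDR, but against SVZ Nes rose in YAP-M and Msi1 fell.

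The paralog Msi2 fell in YAP-M against SVZ by 1.27 (SE 0.18, edgeR adjusted p = 4.86e-05), from 119 to 147 CPM in SVZ to 41.1 to 70.4 CPM in YAP-M. Against YMdIDR it was not called at 0.51 ± 0.18 (edgeR adjusted p = 0.0401), of the opposite sign to Msi1. Numb differed by -0.57 ± 0.12 from SVZ and -0.54 ± 0.12 from YMdIDR (edgeR adjusted p = 0.00109 and 0.00482), neither reaching the minimum size.

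Fabp7 and Slc1a3 encode the brain lipid-binding protein and the glutamate transporter GLAST, both carried by radial glia and kept by astrocytes. Fabp7 (ENSMUSG00000019874, mm10 chr10:57784881-57788450, plus strand) stood at 56.3, 68.1, 37.8 and 38.1 CPM in YAP-M, 56.6, 35.0 and 36.6 CPM in YMdIDR and 75.8, 65.6 and 73.8 CPM in SVZ. In NSC-YAP it stood at 982 and 942 CPM. The fusion groups overlapped each other, 1 YAP-M library fell inside the SVZ range, and both NSC-YAP libraries were more than 10 times any other. Fabp7 was under the minimum size in YAP-M against SVZ (-0.52 ± 0.22, edgeR adjusted p = 0.0499). It was not called between the constructs (0.23 ± 0.22, edgeR adjusted p = 0.433). YMdIDR against SVZ, at -0.75 ± 0.24 (edgeR adjusted p = 0.0139), was under the minimum size, and was called without YMdIDR replicate 1, at -1.0. NSC-YAP exceeded SVZ by 3.75 ± 0.28 (edgeR adjusted p = 6.66e-07) and YAP-M by 19.2-fold, a log2 difference of -4.26 ± 0.25 for YAP-M (edgeR adjusted p = 8.93e-08). Per kilobase, Fabp7 ranked 51 of 18329 in NSC-YAP and 834 in SVZ.

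Other fatty acid binding protein genes behaved differently. Fabp3 rose in YAP-M against SVZ by 1.78 ± 0.51 (edgeR adjusted p = 0.00729) and Fabp4, of adipocytes, macrophages and endothelium, from 0.14 CPM, near 3 counts, to 76.9 CPM (edgeR adjusted p = 0.000149). Fabp5 was not called there, at 0.59 ± 0.26. Against YMdIDR, Fabp3 was called at 1.35 ± 0.50 (edgeR adjusted p = 0.0479), but not without YAP-M replicate 1 or 3 or YMdIDR replicate 1 or 2, where it was 0.92 to 1.41. Fabp5 at -0.79 ± 0.25 and Fabp4 at 0.72 ± 0.83 were not called. Without YMdIDR replicate 1, Fabp4 was called at 3.45, and without YMdIDR replicate 3, Fabp5 was called at -1.08.

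Slc1a3 (ENSMUSG00000005360, mm10 chr15:8634124-8710764, minus strand) stood at 279, 249, 331 and 203 CPM in YAP-M replicates 1 to 4 and 139, 43.1 and 104 CPM in YMdIDR. It stood at 722, 806 and 896 CPM in SVZ and 3750 and 3697 CPM in NSC-YAP. The groups did not overlap and fell in the order NSC-YAP, SVZ, YAP-M and YMdIDR. The YMdIDR libraries spread 3.22-fold. Slc1a3 fell against SVZ by 1.61 in YAP-M (SE 0.30, edgeR adjusted p = 0.000485) and 3.09 in YMdIDR (SE 0.35, edgeR adjusted p = 1.02e-05). Between the constructs it was 2.79-fold higher in YAP-M, 1.48 ± 0.32 on the log2 scale (edgeR adjusted p = 0.00371). In NSC-YAP it rose over SVZ by 2.20 ± 0.36 (edgeR adjusted p = 0.000248).

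The 7 astrocyte markers, Gfap and Slc1a2 among them, did not all move with Slc1a3. Against SVZ, 4 fell in YAP-M, 1 rose (Gfap) and 2 were not called, and all 7 fell in NSC-YAP. They summed to 3678 to 4970 CPM in SVZ, 1695 to 2751 CPM in YAP-M, 1591, 506 and 903 CPM in YMdIDR replicates 1 to 3, and 415 to 437 CPM in NSC-YAP. In SVZ the sum was mostly Slc1a2 (3047 CPM on average) and in YAP-M mostly Gfap (1253 CPM). The YMdIDR libraries had the same order for the sum as for Slc1a3, but in YAP-M replicate 3 had the highest Slc1a3 and the lowest sum (1695 CPM) and replicate 4 the lowest Slc1a3 and the highest sum (2751 CPM). In NSC-YAP, where Slc1a3 was highest, the astrocyte sum was the lowest of the 4 groups. The part of astrocytes in the tissue levels was not tested. Of 5 genes of glutamate transport and glutamine synthesis, Slc1a5 rose in YAP-M against SVZ (2.96 ± 0.21, edgeR adjusted p = 3.18e-07) and 3 fell. Slc1a2, the main astrocyte transporter and also on the marker list, fell by 3.45 (SE 0.41, edgeR adjusted p = 1.46e-05), Slc1a1, of neurons, by 3.0 (SE 0.33, edgeR adjusted p = 8.59e-06), and Glul, for glutamine synthetase, also fell. Against YMdIDR these 3 were higher in YAP-M, Slc1a2 by 1.5 ± 0.41, Slc1a1 by 1.41 ± 0.35 and Glul by 1.01 ± 0.19 (edgeR adjusted p = 0.0122, 0.00801 and 0.00163). The call of Glul, at the minimum size, was lost with the replicate block and without YAP-M replicate 3 or 4 or YMdIDR replicate 2 or 3, where it was 0.87 to 0.99.

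Ptprz1 encodes a receptor tyrosine phosphatase of radial glia and oligodendrocyte precursors whose ligand pleiotrophin inactivates it. Ptprz1 (ENSMUSG00000068748, mm10 chr6:22875502-23052916, plus strand) stood at 125, 112, 147 and 119 CPM in YAP-M replicates 1 to 4 and 58.9, 49.0 and 63.1 CPM in YMdIDR. It stood at 411, 483 and 514 CPM in SVZ and 2336 and 2551 CPM in NSC-YAP. No groups overlapped, and the order was that of Slc1a3. Ptprz1 fell against SVZ by 1.90 in YAP-M (SE 0.13, edgeR adjusted p = 2.02e-07) and 3.04 in YMdIDR (SE 0.14, edgeR adjusted p = 1.9e-08) and rose by 2.38 ± 0.15 in NSC-YAP (edgeR adjusted p = 2.24e-07). YAP-M was 2.21-fold above YMdIDR, 1.14 ± 0.13 (edgeR adjusted p = 0.000111), and 19.4-fold below NSC-YAP, -4.28 ± 0.14 (edgeR adjusted p = 3.37e-09). The summed level of 6 oligodendrocyte precursor markers had the same group order, at 2475 to 2563 CPM in NSC-YAP, 985 to 1093 CPM in SVZ, 98.1 to 196 CPM in YAP-M and 43.4 to 135 CPM in YMdIDR, the fusion groups overlapping. The markers went both ways in NSC-YAP against SVZ, with 3 higher (Olig1, Olig2 and Cspg4), 2 lower (Pdgfra and Sox10, at 1.47 CPM against 126 CPM) and 1 not called, and Olig1 and Olig2 averaged 1537 and 605 CPM of the NSC-YAP sum. The part of such cells in the level of Ptprz1 was not tested.

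Of 5 ligands and partners of PTPRZ1, 3 fell in YAP-M against SVZ (Ptn, Cntn1 and Nrcam) and 2 rose (Mdk and Tnc). Ptn, for pleiotrophin, was 84.7 ± 10.2 CPM in YAP-M (SD, n = 4), 31.9 ± 13.4 CPM in YMdIDR (SD, n = 3), 430 ± 46.4 CPM in SVZ (SD, n = 3) and 1197 ± 52.9 CPM in NSC-YAP (SD, n = 2). Its order was that of Ptprz1, and it differed from SVZ by -2.34 ± 0.23 in YAP-M (edgeR adjusted p = 3.83e-06) and from YMdIDR by 1.41 ± 0.24 (edgeR adjusted p = 0.00105). Cntn1 and Nrcam, adhesion molecules of neurons and glia, fell by 3.24 and 1.35 (SE 0.39 and 0.16; edgeR adjusted p = 1.79e-05 and 1.27e-05). Mdk, for the related ligand midkine, went the other way between the constructs. It was 4.63-fold lower in YAP-M than in YMdIDR, -2.21 ± 0.28 (edgeR adjusted p = 0.000197), and 0.51 ± 0.14 CPM in NSC-YAP (SD, n = 2). Nrcam was not called there, at 0.80 ± 0.16 (edgeR adjusted p = 0.0027).

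Prom1 encodes prominin, also called CD133, a protein of membrane protrusions used to sort stem cells and found on ependymal cells. Prom1 (ENSMUSG00000029086, mm10 chr5:43993620-44102032, minus strand) stood at 11.6, 9.45, 8.91 and 13.2 CPM in YAP-M replicates 1 to 4. In YMdIDR it stood at 3.08, 1.53 and 1.90 CPM, from 72, 34 and 43 counts, in SVZ at 30.2, 36.5 and 36.4 CPM and in NSC-YAP at 17.3 and 19.2 CPM. The 4 groups did not overlap, with SVZ highest and YMdIDR lowest. Prom1 had the largest difference between the constructs of any member, 4.97-fold higher in YAP-M at 2.31 ± 0.24 (edgeR adjusted p = 6.79e-05). It fell against SVZ by 1.67 in YAP-M (SE 0.21, edgeR adjusted p = 2.09e-05) and 3.98 in YMdIDR (SE 0.26, edgeR adjusted p = 1.45e-07). NSC-YAP differed from SVZ by -0.91 ± 0.25 and YAP-M from NSC-YAP by -0.76 ± 0.23, neither reaching the minimum size (edgeR adjusted p = 0.00798 and 0.0116). Markers of multiciliated ependymal cells summed to 49.7 to 65.0 CPM in SVZ, 12.6 to 29.2 CPM in YAP-M, 7.82 to 26.8 CPM in YMdIDR and 40.7 to 41.5 CPM in NSC-YAP. The NSC-YAP sum was mostly Foxj1, at 37.4 CPM on average. Of the 6 markers, 5 were lower in NSC-YAP than in SVZ and 0 were higher. The part of ependymal cells in the level of Prom1 was not tested.

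**Figure D3:**
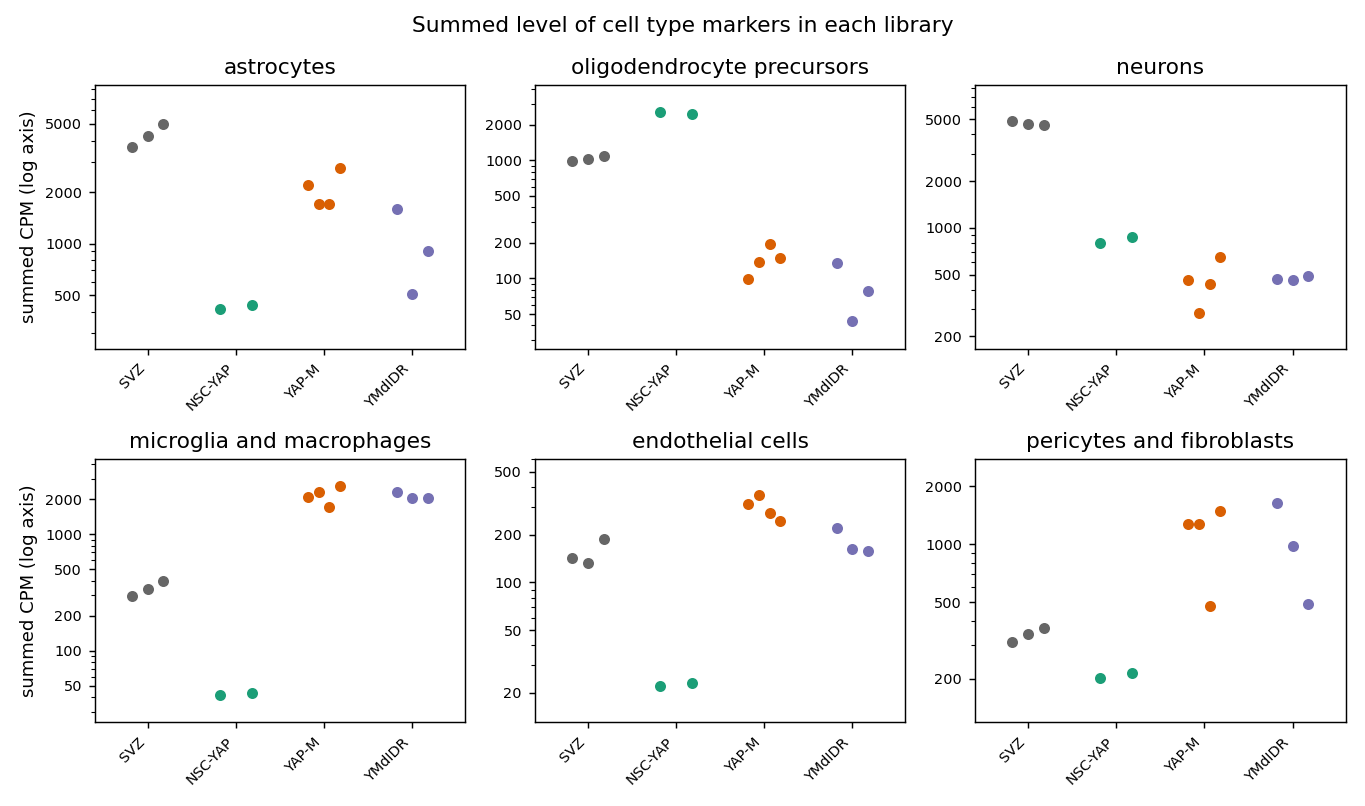
Summed CPM of the marker lists of 6 cell types in each library (log axis, a different range in each panel); points are libraries. Markers of microglia and macrophages lie at 1726 to 2633 CPM in the 7 fusion libraries and at 41.4 to 43.8 CPM in NSC-YAP. The astrocyte sum of YMdIDR runs from 506 to 1591 CPM.

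The 17 other genes of neural stem cells, such as the SOX, HES and Notch genes, were read beside the members. Against SVZ, 5 rose in YAP-M (Egfr, Hes1, Tnc, Emx2 and Gfap), 8 fell (Sox1, Sox2, Hes5, Nr2e1, Lhx2, Fgfr3, Id4 and Aldoc) and 4 were not called, with a median of -0.93. Egfr, the receptor of the growth factor used to keep such cells in culture, rose by 3.6 ± 0.19, from 22.0 ± 2.73 to 267 ± 30.4 CPM (SD, n = 3 and 4; edgeR adjusted p = 5.57e-08). Nr2e1, for the stem cell factor TLX, fell by 3.24 (SE 0.24, edgeR adjusted p = 3.97e-07) and Fgfr3 by 1.69 (SE 0.14, edgeR adjusted p = 1.12e-06). In NSC-YAP against SVZ, 10 of the 17 rose and 3 fell, with a median of 1.7. Sox2, which keeps neural stem cells undifferentiated, averaged 488 ± 16.7 CPM in NSC-YAP (SD, n = 2), 84.4 ± 9.86 CPM in SVZ (SD, n = 3), 25.2 ± 2.04 CPM in YAP-M (SD, n = 4) and 9.94 ± 4.51 CPM in YMdIDR (SD, n = 3). It was called in all 6 comparisons, with YAP-M above YMdIDR by 1.34 ± 0.25 (edgeR adjusted p = 0.00177). Of the 17, 2 were higher in YAP-M than in YMdIDR (Gli3, 1.29 ± 0.14, edgeR adjusted p = 8.32e-05, and Sox2), and the median was 0.43. None was lower by edgeR or DESeq2, and 2 were lower at an unadjusted p under 0.05. Without YMdIDR replicate 1, 6 were higher. Against NSC-YAP, YAP-M was lower for 11 of the 17 and higher for 3 (Emx2, Gli3 and Gfap), with a median of -2.02.

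Gfap, a filament gene of astrocytes and adult neural stem cells chosen for mention after its values were seen, was ordered differently from Fabp7, Slc1a3 and Ptprz1, with YAP-M highest and NSC-YAP lowest. It averaged 1253 ± 267 CPM in YAP-M (SD, n = 4), 663 ± 391 CPM in YMdIDR (SD, n = 3), 265 ± 5.16 CPM in SVZ (SD, n = 3) and 11.2 ± 0.848 CPM in NSC-YAP (SD, n = 2). YAP-M lay above SVZ by 2.24 ± 0.35 (edgeR adjusted p = 0.000107) and NSC-YAP below it by 4.56 (SE 0.48), a log2 difference of -4.56 (edgeR adjusted p = 8.74e-06). Between the constructs it had the sign of Slc1a3 and Ptprz1, at 0.92 ± 0.33 in YAP-M against YMdIDR (edgeR adjusted p = 0.0409), and was not called. It was called after quantile normalization (1.4) and without YAP-M replicate 2 or 3 or YMdIDR replicate 1 (1.01 to 1.47).

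**Figure D4:**
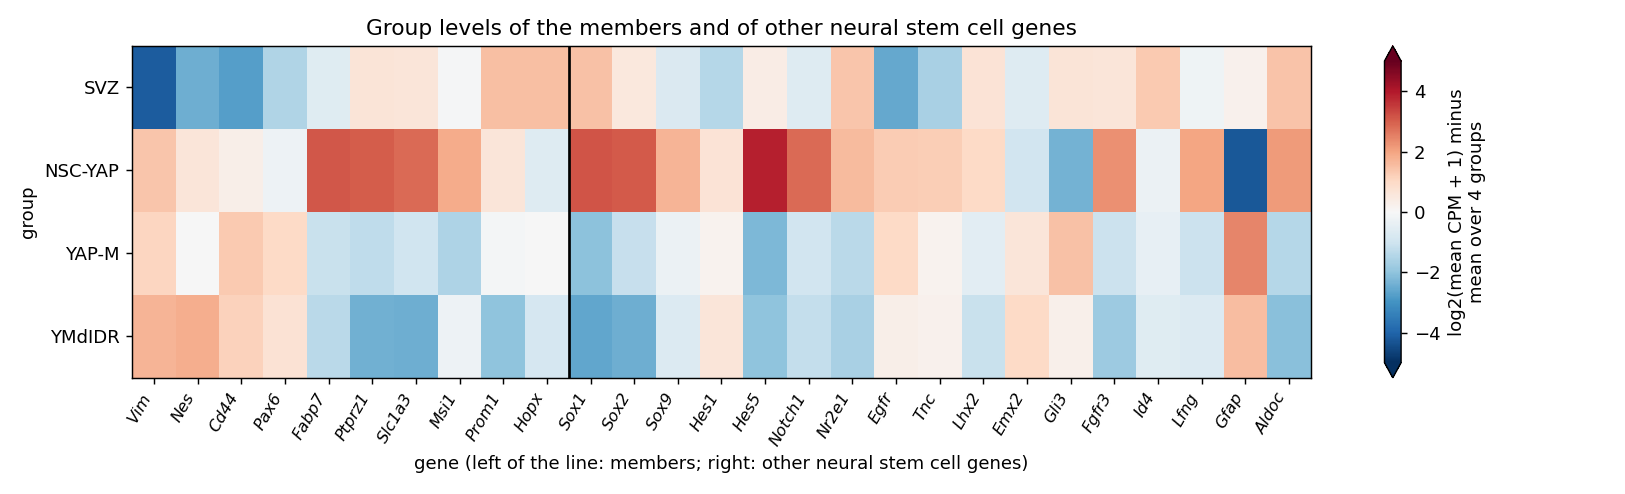
Group means of the 10 members (left of the line) and of 17 other neural stem cell genes (right), as log2(mean CPM + 1) minus the gene's mean over the 4 groups; red is above and blue below that mean. Sox2 is red in NSC-YAP (488 CPM) and blue in YMdIDR (9.94 CPM), as are Ptprz1 and Slc1a3, while Gfap is blue in NSC-YAP (11.2 CPM).

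The patterns of the members over the 12 libraries were set beside each other and beside 12221 genes with a mean of at least 5 CPM, by the Euclidean distance of log2(CPM + 1) centred on each gene's mean. The closest pair of members was Ptprz1 and Slc1a3, at 1.27, followed by Hopx and Prom1 at 2.77 and Cd44 and Pax6 at 2.84. The farthest was Slc1a3 and Vim, at 12.1. The gene nearest to Slc1a3 was Sox2, at 0.74, with Ednrb, for the endothelin B receptor, at 0.97. Ptprz1 had Sema5b (0.75) and Sox2 (0.84) nearest. For Fabp7 they were Sall3 (0.92) and Notch1 (1.11), and for Msi1 Zfp219 (0.84) and Plxna3 (0.92). Vim had Eif4ebp1 (0.98) and Lgals1 (1.49), and Cd44 had Tsku (0.75) and Hk2 (1.04). Nes had Uhrf1 (1.28), which maintains DNA methylation in dividing cells, and Tead2 (1.42), a DNA-binding partner of YAP. Tead2 stood at 5.68 CPM in SVZ, 56.0 CPM in YAP-M, 126 CPM in NSC-YAP and 181 CPM in YMdIDR on average. Pax6 had Ntn4 (1.03) and Lhfp (1.07), Prom1 had Smarca2 (0.94) and Rora (1.02), and Hopx had Cacna1d (0.78) and Plpp6 (0.86). These distances are a description over 12 libraries in 4 groups, which share their group, its cell makeup and depth for every gene.

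The spread among libraries of a group differed between members. In YMdIDR the coefficient of variation was 54.7% for Hopx, 50.8% for Slc1a3 and 37.2% for Prom1, and 11.2% for Nes and 12.7% for Ptprz1. In YAP-M it was 42.8% for Pax6 and 33.2% for Msi1, and 11.95% for Vim and 12.1% for Ptprz1. YAP-M replicate 3 had the lowest Vim, Nes, Pax6, Prom1, Msi1, Cd44 and Fabp7 of its group and the highest Slc1a3 and Ptprz1. Its pericyte and fibroblast markers summed to 477 CPM, against 1276 to 1481 CPM in the other YAP-M libraries. In NSC-YAP the coefficient of variation of every member but Hopx was under 8%, over 2 libraries whose counts differed less (chi-square per gene 4.18) than those of any other pair within a group (up to 84.9).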

How the data were processed

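The 10 members and all gene lists were chosen with earlier results of these data known. The deposited values are raw read counts per gene, 1 table per library. The submitters' processing notes name TopHat2 and mm10; versions, annotation release and counting program were not given in the sources used here. Lines sharing a symbol were summed, giving 52850 symbols; 18329 reached 1 CPM in 2 or more libraries and were tested. Counts were scaled by TMM and fitted in 1 edgeR 4.0.16 quasi-likelihood model (R 4.3.3) over all 12 libraries and 4 groups, with 6 comparisons. Printed CPM use TMM-scaled library sizes. The call rule is given with the first counts. ± after a log2 value is its SE. In simulated counts, of 100 genes changed 2-fold 36 were called in YAP-M against SVZ, 31 in YAP-M against YMdIDR and 20 in YMdIDR against SVZ; of 100 changed 4-fold, 73 (fusions against NSC-YAP) to 89 (YAP-M against SVZ) were; 3 to 7 unchanged genes were called. Each simulation changed 200 of 17369 to 17415 tested genes, a smaller share than was called in the data. Its rates therefore need not hold for the real comparisons. A 2-fold change also equals the minimum size of a call, so genes estimated below it were not called whatever their p. The 2-fold rates therefore do not measure the sensitivity of the test alone. All 10 members were described. From the lists, up to 3 genes with the smallest adjusted p in YAP-M against SVZ or YMdIDR were named; other list genes were named after their values were seen. Alternatives were DESeq2 1.42.0 and its median-ratio scaling, quantile normalization with limma 3.58.1, other filters, a fit of the compared groups alone, a replicate block and leaving out each library. The 5 chromatin libraries of the series were not analysed here. An item of the neural stem cell list is not reported here.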

Additional observations from a re-analysis of the deposited data

Results flagged for a closer look

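Cd44 in YAP-M replicate 4, at 149.8 CPM, stood apart from the other 3 libraries of its group, which lay at 95.1 to 97.1 CPM. Its gap to the nearest of them was 0.963 of the group's range, above Dixon's critical value of 0.829 for 4 samples. This was 1 of 10 members tested in that group, the only group of 4 or more, and chance alone marks about 1 in 20 such groups. The same library had the highest summed markers of its group for oligodendrocytes (3304 CPM, against 632 to 1609 CPM), macrophages (2633 CPM), astrocytes (2751 CPM), neurons (647 CPM) and pericytes and fibroblasts (1481 CPM), and the lowest for endothelial cells (244 CPM). Their part in the level of Cd44 was not tested.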

How the results depend on the processing

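Of the 60 differences between groups, 10 members in 6 comparisons, 45 kept their sign and their side of the call under every alternative run. Signs turned only where no call was made. Cd44 in YAP-M against YMdIDR was -0.0077 with the replicate block and -9.9e-07 without YAP-M replicate 4 (-9.9e-07 to 0.38 with 1 library left out), Hopx in YMdIDR against NSC-YAP was 0.0090 without YMdIDR replicate 2 (range -0.81 to 0.0090), Msi1 in YMdIDR against SVZ was 0.023 without YMdIDR replicate 3 (range -0.32 to 0.023), and Vim in YAP-M against NSC-YAP was 0.19 after quantile normalization. The cause was not tested. The number of members higher in YAP-M than in NSC-YAP was 2, fell to 1 with the replicate block, and ranged from 1 to 2 when 1 library was left out, with 1 without either NSC-YAP library or YAP-M replicate 4. For YMdIDR against NSC-YAP it also ranged from 1 to 2, with 1 without either NSC-YAP library or YMdIDR replicate 1 or 3. By adjusted p alone, with more genes able to pass, 2 members instead of 1 were lower in NSC-YAP than in SVZ.

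Deviations of same-numbered libraries of YAP-M and YMdIDR correlated at 0.0011, 0.39 and 0.12, and those of the other comparisons at -0.097 to 0.11. No label says what the replicate number marks, and so few correlations cannot decide whether samples were paired. The replicate block changed no member's call beyond Cd44 in YAP-M against NSC-YAP and Hopx in YAP-M against YMdIDR. By adjusted p alone, all-gene counts rose to 5508 from 3199 (higher, NSC-YAP against SVZ), to 3768 from 1761 and 4199 from 1242 (higher and lower, YAP-M against YMdIDR), to 6326 from 3951 (lower, YAP-M against NSC-YAP) and to 5792 from 3744 (lower, YMdIDR against NSC-YAP). With at least 5 CPM, 819 instead of 1242 were lower in YAP-M than in YMdIDR. Quantile normalization moved the median of all genes from 0.10 to -0.18 in YAP-M against NSC-YAP, from 0.13 to -0.13 in YMdIDR against NSC-YAP, from -0.10 to 0.25 in NSC-YAP against SVZ and from -0.01 to 0.10 in YMdIDR against SVZ. Prom1 and Hopx in YMdIDR rest on the fewest reads, and with 2 NSC-YAP libraries a leave-out fit assumes that the remaining one varies like the other groups.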
